A study of Mus musculus with 4 samples.

Results

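Transcripts of 10 efflux pumps of the ATP-binding cassette (ABC) family were examined in murine liver after acetaminophen (APAP) overdose. They were chosen by gene symbol: Abcc2, Abcb4, Abcg2, Abcb1a and Abcb1b encode pumps of the canalicular membrane, which faces the bile, and Abcc1, Abcc3, Abcc4, Abcc5 and Abcc6 encode pumps of the basolateral membrane, which faces the blood. All 10 are among the 27027 gene entries of the count table, and 8 of them are among the 12113 entries that averaged 10 or more normalized reads over the 4 libraries. These entries are called the genes tested, although only their folds were compared. Abcc1 and Abcb1a lie under that limit, with means of 9.80 and 7.64 normalized reads, and are given with their reads. The place of each protein in the cell is background knowledge, since RNA carries no information on the membrane.

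All animals were male mice aged 9 to 12 weeks, of the strain C57BL/6 in the labels (C57BL/6J in the methods), that were fasted for 10 h and then injected intraperitoneally with 0.9% NaCl, either alone (control) or as the solvent of APAP at 300 mg/kg. Livers were taken 24 h or 48 h later. RNA of 6 control mice or 7 APAP mice was pooled for each time, and each pool gave 1 library of massive analysis of cDNA ends (MACE), a 3′mRNA sequencing method that reads fragments from the 3′ end of polyadenylated transcripts. The design addresses how hepatic expression differs from control while APAP-induced liver injury resolves.

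Hepatocytes dispose of APAP mainly as glucuronide and sulfate conjugates, and a smaller share becomes a reactive metabolite that is bound by glutathione. These charged products cannot cross membranes unaided, so ATP-driven pumps carry them out, either across the canalicular membrane to bile or across the basolateral membrane to blood and then urine. Hepatocytes around the central vein, which hold most of the enzymes that form the reactive metabolite, are those lost in APAP-induced necrosis.

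The libraries held between 4859661 and 5698778 reads on genes, and between 19637 and 20641 entries had a read. A count of 3 reads, used as the floor, was 0.526 to 0.617 RPM, counts scaled to library totals. Normalized reads are counts divided by the size factor of the library (DESeq2's median of ratios, 0.880 to 1.17). A fold is the APAP pool over the control pool of the same time in normalized reads, so that 24 h and 48 h have separate controls, and the interval beside it is the 95% exact (Clopper-Pearson) interval of counting error. With 1 library for each group there is no replicate check within a group and the spread between mice is unknown. APAP and control were compared at each time without a test, and a test that takes the pools of both times as replicates of a treatment was not run. A call is a fold of at least 2 in either direction. Scaling by library totals in place of size factors moved the median log2 fold of all genes up by 0.187 at 24 h and 0.266 at 48 h. In pooled bulk RNA, fewer cells of a type and less RNA per cell cannot be told apart.

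The clearest differences by count were lower reads for Abcb4, Abcg2 and Abcc6 and higher reads for Abcc4 in APAP livers, whereas Abcc2 and Abcc3 differed from control by less than 1.5-fold at both times. At 24 h, 1 of the 8 tested pump genes was at least 2-fold lower (Abcc6), beside 5.68% of all genes tested, and 0 of 8 were at least 2-fold higher, beside 5.85% of all genes. At 48 h, 3 of 8 were at least 2-fold lower (Abcb1b, Abcb4 and Abcg2), beside 5.61% of all genes. At the same time 2 of 8 were at least 2-fold higher (Abcc4 and Abcc5), beside 5.76% of all genes. The calls of 1 or 2 genes are a small count to read against those backgrounds, and those of Abcb1b and Abcc5 rested on 30 reads or fewer in each library.

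Of the pumps called at 48 h, those with lower reads were all canalicular and those with higher reads all basolateral. This split rests on the 2-fold limit, since basolateral Abcc6 was 1.93-fold lower at 48 h (1.58 to 2.38), just short of a call. When calls were made by interval, the lower ones included basolateral Abcc3 and Abcc6, and Abcc4 was the only higher one. For the 4 tested canalicular genes the log2 folds had a median of -0.30 at 24 h against -1.03 at 48 h. The 4 tested basolateral genes had medians of -0.041 and 0.45, and all genes tested had medians of 0.0072 and -0.015. The basolateral median hides opposite values, since Abcc6 was lower at both times while Abcc4 and Abcc5 were higher at 48 h.

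The number of lower calls depended on the scaling. With library totals, 0 of the 8 pump genes were at least 2-fold lower at 24 h and 0 of 8 at 48 h, because Abcc6 was then 1.82-fold lower at 24 h, and Abcb1b, Abcb4 and Abcg2 were between 1.68-fold and 1.71-fold lower at 48 h. Over all genes the split at 24 h was 709 higher and 688 lower with size factors and 1066 higher and 442 lower with library totals. At 48 h it was 698 higher and 680 lower with size factors and 1195 higher and 394 lower with library totals.

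**Figure D1:**
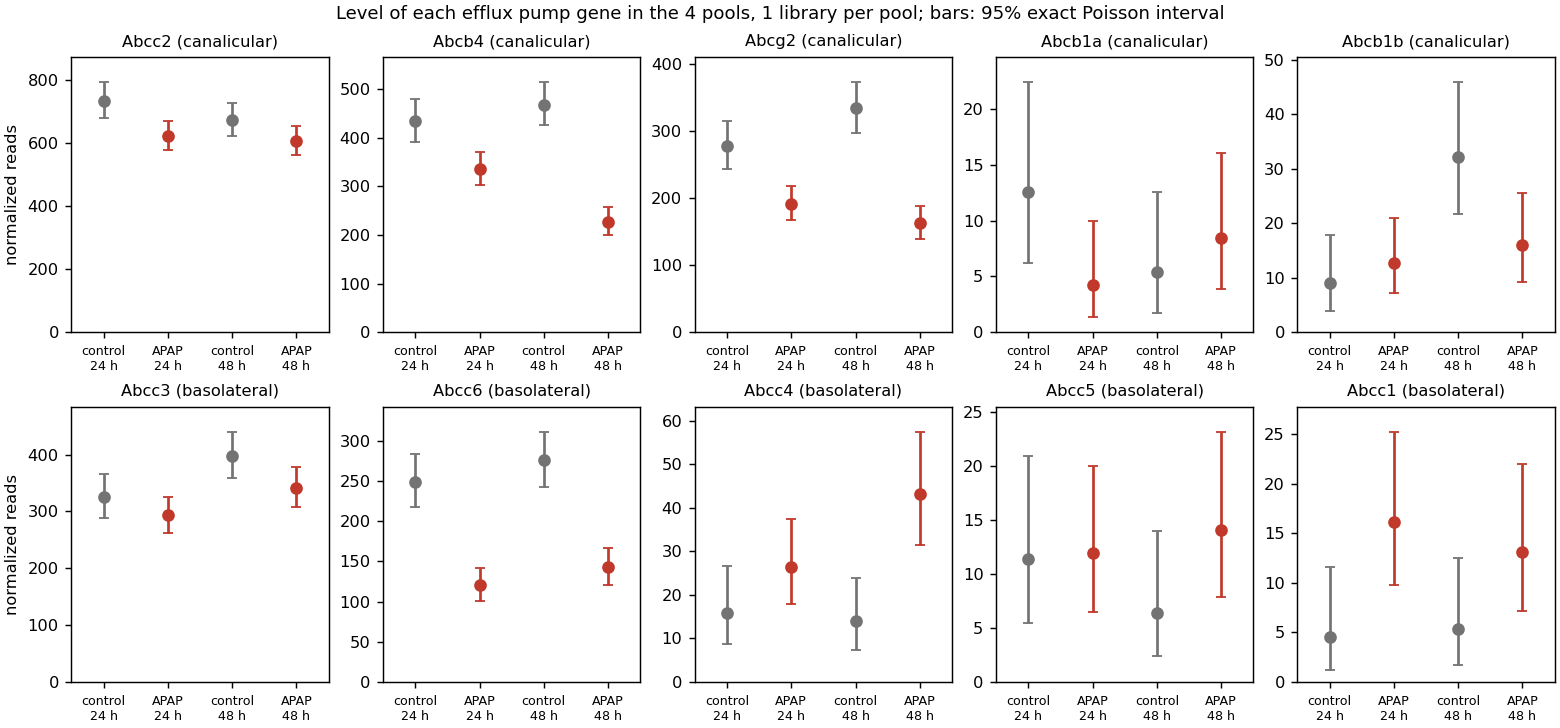
Normalized reads (vertical axes, from 0) of each efflux pump gene in the 4 pools, with control in grey and APAP in red, 1 library per pool and bars for the 95% exact Poisson interval of the count. Abcb4, Abcg2 and Abcc6 lie lower in both APAP pools than in both control pools, Abcc4 lies higher in both, and Abcb1a and Abcb1b, drawn from 5 to 30 reads, have control pools that lie apart, beyond counting error only for Abcb1b.

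Abcc2 encodes MRP2, the canalicular pump for glutathione and glucuronide conjugates, from 32 exons at chr19:43782192-43840740 on the plus strand (GRCm38, GENCODE M21, as for all genes given here). Its normalized reads were 733 and 672 in the control pools at 24 h and 48 h and 623 and 606 in the APAP pools. Both APAP pools were below both control pools, but by little. Abcc2 was 1.18-fold lower at 24 h (interval 1.06 to 1.31), and its fold at 48 h was 0.901 (0.806 to 1.01). With library totals the fold was 0.966 at 24 h and 1.08 at 48 h, so the direction at 48 h turned with the scaling. A 2-fold difference lay outside both counting intervals.

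Abcb4 encodes MDR2, the floppase that moves phosphatidylcholine into bile, where the phospholipid shields the bile ducts from bile acids. It had 434 and 469 normalized reads in the control pools at 24 h and 48 h, and 336 and 228 in the APAP pools. The APAP pool at 48 h was the lowest of the 4 and the APAP pool at 24 h lay between it and the controls. Abcb4 was 1.29-fold lower at 24 h (1.12 to 1.49) and 2.06-fold lower at 48 h (1.75 to 2.42). With library totals the value at 48 h was 1.71-fold lower, and against the control pool of the other time 1.91-fold lower, so either choice ended the call.

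Abcg2 encodes BCRP, a canalicular pump for sulfate conjugates and urate, at chr6:58584523-58695676 on the plus strand. The control pools held 277 normalized reads at 24 h and 333 at 48 h, and the APAP pools 191 and 162. Both APAP pools were below both control pools. Abcg2 was 1.45-fold lower at 24 h (1.21 to 1.75) and 2.06-fold lower at 48 h (1.70 to 2.49). The control pools themselves differed by 1.20-fold (1.01 to 1.43), with the pool at 48 h higher. At 48 h Abcg2 was 1.71-fold lower both with library totals and against the control pool of the other time, under the 2-fold limit.

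Abcb1a and Abcb1b encode the mouse forms of P-glycoprotein, which exports hydrophobic drugs, and they form a cluster with Abcb4 on chromosome 5. On the plus strand of GRCm38 (GENCODE M21), Abcb1a spans chr5:8660077-8748575, Abcb1b chr5:8798147-8866315 and Abcb4 chr5:8893717-8959231. The gaps are 49.571 kb between Abcb1a and Abcb1b and 27.401 kb between Abcb1b and Abcb4. The genes are close copies, so reads from the end of one could be counted for another. A stretch of 120 coding bases is shown from each because it bears on how well 3′ reads tell the 3 genes apart, with capitals where Abcb1b or Abcb1a differ from Abcb4. The windows lie at chr5:8959026-8959145 in Abcb4, chr5:8865807-8865926 in Abcb1b and chr5:8747412-8747531 in Abcb1a, each within 1 exon and read on the plus strand.
Abcb4: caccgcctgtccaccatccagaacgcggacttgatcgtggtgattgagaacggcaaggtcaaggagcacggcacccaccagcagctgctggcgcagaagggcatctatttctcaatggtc
Abcb1b: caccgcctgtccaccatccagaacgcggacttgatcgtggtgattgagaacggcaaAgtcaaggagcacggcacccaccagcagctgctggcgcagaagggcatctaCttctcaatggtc
Abcb1a: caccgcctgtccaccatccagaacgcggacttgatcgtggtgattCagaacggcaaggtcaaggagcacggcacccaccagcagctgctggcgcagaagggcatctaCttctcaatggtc

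Each of the other 2 genes differs from Abcb4 at 2 of these 120 bases, an identity of 98.3%. The window ends 81 bases before the transcript end in Abcb4, 389 bases before it in Abcb1b and 1044 bases before it in Abcb1a. The last 300 bases of each pump's principal transcript were also aligned to the transcripts of other genes. A whole alignment of at least 100 bases with at least 95% identity was found only for Abcb4, with 219 bases at 96.3% identity to Abcb1b. That search judged whole alignments, so it did not list Abcb1a. The 120 bases shown above also lie in the last 300 of Abcb4, and there Abcb1a is 98.3% identical. Reads in that stretch may be split between the pair, and how the authors' counting treated them is not given in the sources used here. Abcb1b had at most 30 reads in a library and Abcb1a at most 11, where Abcb4 had 243 to 437.

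Abcb1a had 11 and 5 reads in the control pools at 24 h and 48 h, and 5 and 9 in the APAP pools. The groups overlapped. The fold was 0.341 at 24 h (0.0928 to 1.06) and 1.57 at 48 h (0.474 to 5.98), on opposite sides of 1 with both intervals including 1. At this depth no difference of Abcb1a was detectable.

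For Abcb1b the table gives 1 entry shared with 7330423F06Rik, a gene on its strand that overlaps it, and Gm5106 lies antisense to it. Whether the counting used strand is not given in the sources used here, so reads of Abcb1b and Gm5106 may not be told apart. The shared entry had 8 and 30 reads in the control pools at 24 h and 48 h and 15 and 17 in the APAP pools, so that both APAP pools lay between the 2 controls. The fold was 1.40 at 24 h (0.559 to 3.83), and Abcb1b was 2.02-fold lower at 48 h (1.08 to 3.90). The control pools differed from each other by more than either comparison, 3.54-fold (1.58 to 8.93) higher at 48 h. Against the control pool of the other time, the value was 2.52-fold lower at 24 h and 1.75-fold higher at 48 h, which turns the direction at both times.

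Abcc3 encodes MRP3, the basolateral pump for glucuronides, including that of APAP, at chr11:94343295-94392997 on the minus strand. It had 325 and 398 normalized reads in the control pools at 24 h and 48 h and 293 and 341 in the APAP pools. The APAP pool at 48 h lay between the controls. The fold was 0.901 at 24 h (0.768 to 1.06), and Abcc3 was 1.17-fold lower at 48 h (1.01 to 1.35). With library totals the fold was 1.03 at both times, so its direction turned with the scaling, and the 2 control pools differed by 1.22-fold (1.05 to 1.43), more than APAP and control at either time.

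Abcc6 encodes MRP6, a basolateral protein of hepatocytes needed for the release of ATP that gives rise to circulating pyrophosphate, an inhibitor of mineralization. The gene lies at chr7:45967555-46030302 on the minus strand. The control pools held 249 normalized reads at 24 h and 276 at 48 h, and the APAP pools 120 and 143. Both APAP pools were far below both controls. Abcc6 was 2.07-fold lower at 24 h (1.67 to 2.58) and 1.93-fold lower at 48 h (1.58 to 2.38). With library totals it was 1.82-fold and 1.61-fold lower. A difference between the times was not detectable, since the ratio of the folds was 1.07 (0.793 to 1.45).

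Abcc4 encodes MRP4, a basolateral pump for cyclic nucleotides, sulfate conjugates and, together with glutathione, bile acids. Its 31 exons lie at chr14:118482692-118706219 on the minus strand. Its reads were few: 14 and 13 in the control pools at 24 h and 48 h and 31 and 46 in the APAP pools. In normalized reads these were 15.9, 13.9, 26.4 and 43.1, with both APAP pools above both controls. The fold was 1.66 at 24 h (0.857 to 3.38), and Abcc4 was 3.09-fold higher at 48 h (1.64 to 6.24). Against the control pool of the other time it was 1.89-fold and 2.71-fold higher, and with library totals 1.89-fold and 3.72-fold. Between the APAP pools it was 1.63-fold higher at 48 h than at 24 h (1.01 to 2.66).

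Abcc5 encodes MRP5, a pump for cyclic nucleotides that many tissues express, at chr16:20331303-20426394 on the minus strand. It had 10 and 6 reads in the control pools at 24 h and 48 h and 14 and 15 in the APAP pools. The normalized reads were 11.4, 6.43, 11.9 and 14.1, so that the APAP pool at 24 h was level with its control. The fold was 1.05 at 24 h (0.433 to 2.64) and 2.19 at 48 h (0.802 to 6.88). Against the control pool at 24 h, the fold of the APAP pool at 48 h was 1.24, so the call at 48 h ended with the other control, and its interval included 1.

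Abcc1 encodes MRP1, a pump for glutathione conjugates and leukotriene C4 that resting hepatocytes hold at low levels and many other cells express, at chr16:14361558-14475737 on the plus strand. It had 4 and 5 reads in the control pools at 24 h and 48 h and 19 and 14 in the APAP pools. Both APAP libraries held more reads than both controls. Abcc1 was 3.56-fold higher at 24 h (1.18 to 14.4), and its fold at 48 h was 2.45 (0.833 to 8.69). Being under the limit on mean reads, it was not among the genes tested, and its folds would exceed those of 98.5% and 96.9% of the tested genes. That rank sets it against genes with more reads, whose folds spread less. With a floor of 10 reads its folds were 1.42 at 24 h and 1.22 at 48 h.

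**Figure D2:**
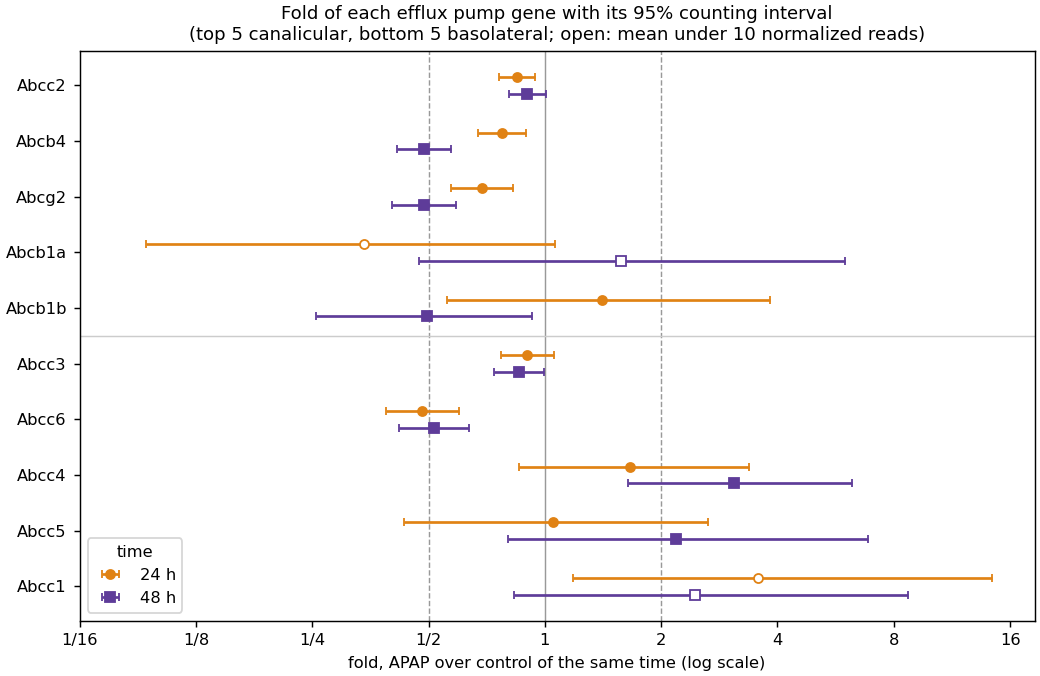
Fold of the APAP pool over the control pool of the same time (horizontal axis, log scale) for each efflux pump gene at 24 h (orange circles) and 48 h (purple squares), with bars for the 95% counting interval, open symbols for genes with a mean under 10 normalized reads and dashed lines at 2-fold in each direction. At 48 h Abcb4 and Abcg2 lie at 2.06-fold lower and Abcc4 at 3.09-fold higher, while Abcc2 and Abcc3 lie near 1, on a side that turned at 48 h with library totals for both.

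Taking the groups as pools without regard to time, 4 of the 8 tested pump genes (Abcc2, Abcb4, Abcg2 and Abcc6) were lower in both APAP pools than in both control pools, beside 26.3% of all genes tested. The reverse held for 2 of 8 (Abcc4 and Abcc5), beside 24.8% of all genes, so that share is close to the background. The control pool at 48 h was at least 2-fold above that at 24 h for 1 of 8 (Abcb1b), beside 2.86% of all genes, and at least 2-fold below it for 0 of 8, beside 2.34%.

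The difference between APAP and control was larger at 48 h than at 24 h for Abcb4 and Abcg2. The ratio of the fold at 48 h to that at 24 h was 0.629 for Abcb4 (0.507 to 0.781) and 0.707 for Abcg2 (0.541 to 0.925). These intervals exclude 1, and for Abcb4 the APAP pools alone had a ratio of 0.679 (0.576 to 0.799). For Abcg2 the ratio of the APAP pools was 0.850 (0.693 to 1.04), so its ratio of folds also rested on the higher control pool at 48 h. The interval included 1 for the other 8 pump genes, among them Abcc4 with 1.87 (0.702 to 4.95).

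**Figure D3:**
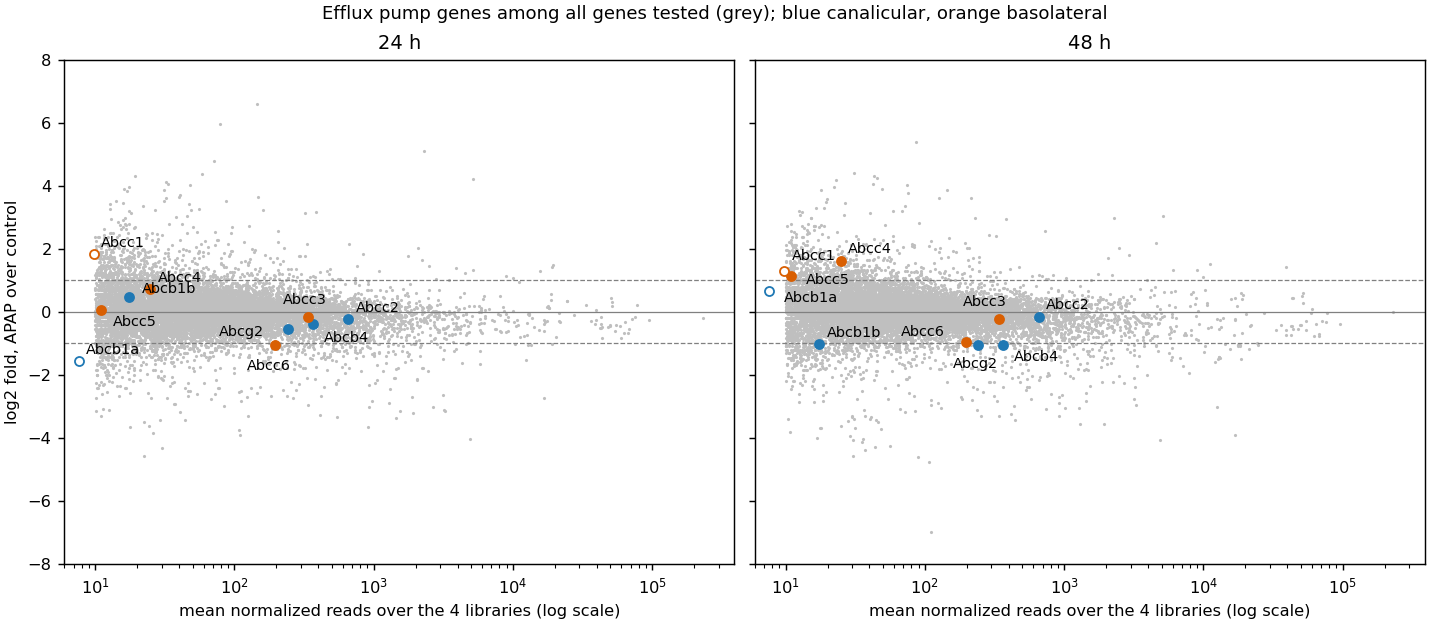
Log2 fold of APAP over control (vertical axis) against the mean normalized reads over the 4 libraries (horizontal axis, log scale) at 24 h and 48 h, with the 12113 tested genes in grey, canalicular pumps in blue, basolateral pumps in orange, open symbols for Abcc1 and Abcb1a, which lie under the limit, and dashed lines at 2-fold. Grey points spread more widely at low reads, where Abcc4, Abcc5, Abcb1b, Abcc1 and Abcb1a lie, and at 48 h Abcb4, Abcg2 and Abcc6 lie at or near the lower line.

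Set against all genes tested, Abcc4 had a higher fold than 89.5% of them at 24 h and 98.3% at 48 h. Abcc6 had a higher fold than 4.89% and 6.17% of them. Abcb4 went from 23.8% at 24 h to 5.17% at 48 h and Abcg2 from 16.2% to 5.18%. Abcc2 stood at 31.7% and 39.1%, within the middle of the distribution.

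Promoter windows from RefSeq (GRCm38.p6), 250 bases before to 50 bases after an annotated start, were found for 7 of the 10 pump genes in 10 windows. For Abcc1, Abcc3 and Abcc6 none was analysed here. The letters TGACNNNGC, the core of the antioxidant response element bound by the stress factor NRF2, were searched on both strands. They occurred in 4 of the 10 windows (both of Abcc4 and those of Abcc2 and Abcb1a) and in 12.4% of 32851 promoters of the same length. The windows are not independent, since 2 of these 4 belong to 1 gene. That of Abcb1a has its start at chr5:8567091, well before the gene span given above, which begins at 8660077. TGANTCA, the AP-1 motif, occurred in 0 of 10 and in 7.81% of all promoters, and AGGTCA, the half-site of nuclear receptors, in 3 of 10 and 16.3%. TGACNNNGC and the complement of AGGTCA share their first letters TGAC, so 1 stretch can hold both. The 120 bases before the start are shown for Abcc4, the pump that was higher at 48 h, with both of its starts, for Abcc2, which differed little, and for Abcb4, which was lower, each on its gene's strand with capitals for a match to any of the 3 motifs. They lie at chr14:118706220-118706339 (minus strand) and chr14:118676932-118677051 (minus strand) for Abcc4, chr19:43782188-43782307 (plus strand) for Abcc2 and chr5:8893601-8893720 (plus strand) for Abcb4.
Abcc4, start at 118706219: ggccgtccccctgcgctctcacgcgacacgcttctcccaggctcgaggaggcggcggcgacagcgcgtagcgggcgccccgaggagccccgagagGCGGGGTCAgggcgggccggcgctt
Abcc4, start at 118676931: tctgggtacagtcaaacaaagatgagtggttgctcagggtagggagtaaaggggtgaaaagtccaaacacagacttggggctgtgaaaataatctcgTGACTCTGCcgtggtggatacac
Abcc2: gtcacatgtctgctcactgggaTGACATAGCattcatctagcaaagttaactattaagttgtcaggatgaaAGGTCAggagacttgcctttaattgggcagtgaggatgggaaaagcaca
Abcb4: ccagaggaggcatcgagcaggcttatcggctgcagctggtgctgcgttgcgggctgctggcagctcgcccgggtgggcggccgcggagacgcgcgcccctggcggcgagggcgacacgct

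Counted from the start at +1, the first Abcc4 window holds the antioxidant core at -25, on the opposite strand, and the second at -23. The Abcc2 window holds it at -98 and AGGTCA at -49. The Abcb4 window holds none of the 3. These are matches of letters in a short window, and factor binding was not measured.

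Abcb11, the bile salt export pump, and 6 other canalicular transport genes were set beside the pumps. Of these 7, 2 were at least 2-fold lower at 24 h, beside 5.68% of all genes tested, and 0 were at least 2-fold higher, beside 5.85%. At 48 h 0 of 7 were at least 2-fold lower, beside 5.61%, and 0 at least 2-fold higher, beside 5.76%. Abcb11 had 1169 and 1225 reads in the control pools at 24 h and 48 h and 622 and 781 in the APAP pools, and was 2.51-fold and 1.79-fold lower. Slc47a1, which exports organic cations to bile, was 2.72-fold and 1.81-fold lower. Atp8b1, a phospholipid flippase, had folds of 1.24 and 1.09, and Atp7b, a copper pump, had 1.17 and 0.666. The median log2 fold of the 7 was 0.067 at 24 h and -0.26 at 48 h.

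Carriers of the basolateral membrane, which mostly take bile acids and drugs up from blood, had lower medians than the basolateral pumps. Of 10 tested of 11, 6 were at least 2-fold lower at 24 h and 6 at 48 h, 5 of them at both times, and none was at least 2-fold higher. Their median log2 fold was -1.22 at 24 h and -1.24 at 48 h. Slco1a1, an organic anion carrier, was 2.66-fold and 4.68-fold lower at 24 h and 48 h. Slc22a7, another organic anion carrier, was 3.58-fold and 3.52-fold lower, and Slc51b, a subunit of the exporter of bile acids to blood, was 4.58-fold and 3.43-fold lower from 24 and 30 control reads.

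Enzymes that make the conjugates these pumps carry were described in the same way. Of 16, 13 were tested, and 2 were at least 2-fold lower at 24 h and 2 at 48 h, with a median log2 fold of -0.40 at both times. Ugt2b1, which forms glucuronides, was 2.96-fold and 5.58-fold lower, and the glutathione transferase Gsta3 3.12-fold and 1.77-fold lower. Gstm1, also a glutathione transferase, was 1.54-fold and 1.80-fold lower, and Sult1b1, a sulfotransferase, 1.91-fold and 2.16-fold lower.

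Targets of NRF2 differed from control in both directions. Of 15 tested of 16, 5 were at least 2-fold higher and 3 at least 2-fold lower at 24 h, and 3 were higher and 3 lower at 48 h, with median log2 folds of 0.60 and 0.099. Gsta1, a glutathione transferase with close copies that may share its reads, was 8.94-fold and 7.80-fold higher. Slc7a11, which imports cystine for glutathione synthesis, had 2 and 3 reads in controls, against 16 and 23 after APAP. Me1, the cytosolic malic enzyme, was 8.13-fold and 7.47-fold lower, and Gstm3 3.46-fold and 4.66-fold lower.

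Of 11 nuclear receptors and regulators of NRF2, 0 were called at either time, with median log2 folds of -0.057 and -0.090. Nr1i3, the xenobiotic receptor CAR, had folds of 1.64 and 0.976 at the 2 times, and Nr0b2, the repressor SHP, 0.928 and 0.508. Keap1, the inhibitor of NRF2, had folds of 0.913 and 0.711, and Ppara, the receptor for fatty acids, 0.794 and 0.768. Of 9 genes for membrane scaffold and trafficking proteins, 0 were called, with medians of -0.038 and -0.17. Rdx, the scaffold radixin that anchors MRP2 in the canalicular membrane, had folds of 0.643 and 0.844, and Pdzk1, a scaffold that binds membrane transporters, 0.798 and 0.558. Msn, the scaffold moesin, had folds of 1.18 (1.01 to 1.40) and 1.40 (1.19 to 1.67). Vps33b, which takes part in vesicle traffic to the canalicular membrane, had 7 and 9 reads in controls, against 14 and 15 after APAP.

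**Figure D4:**
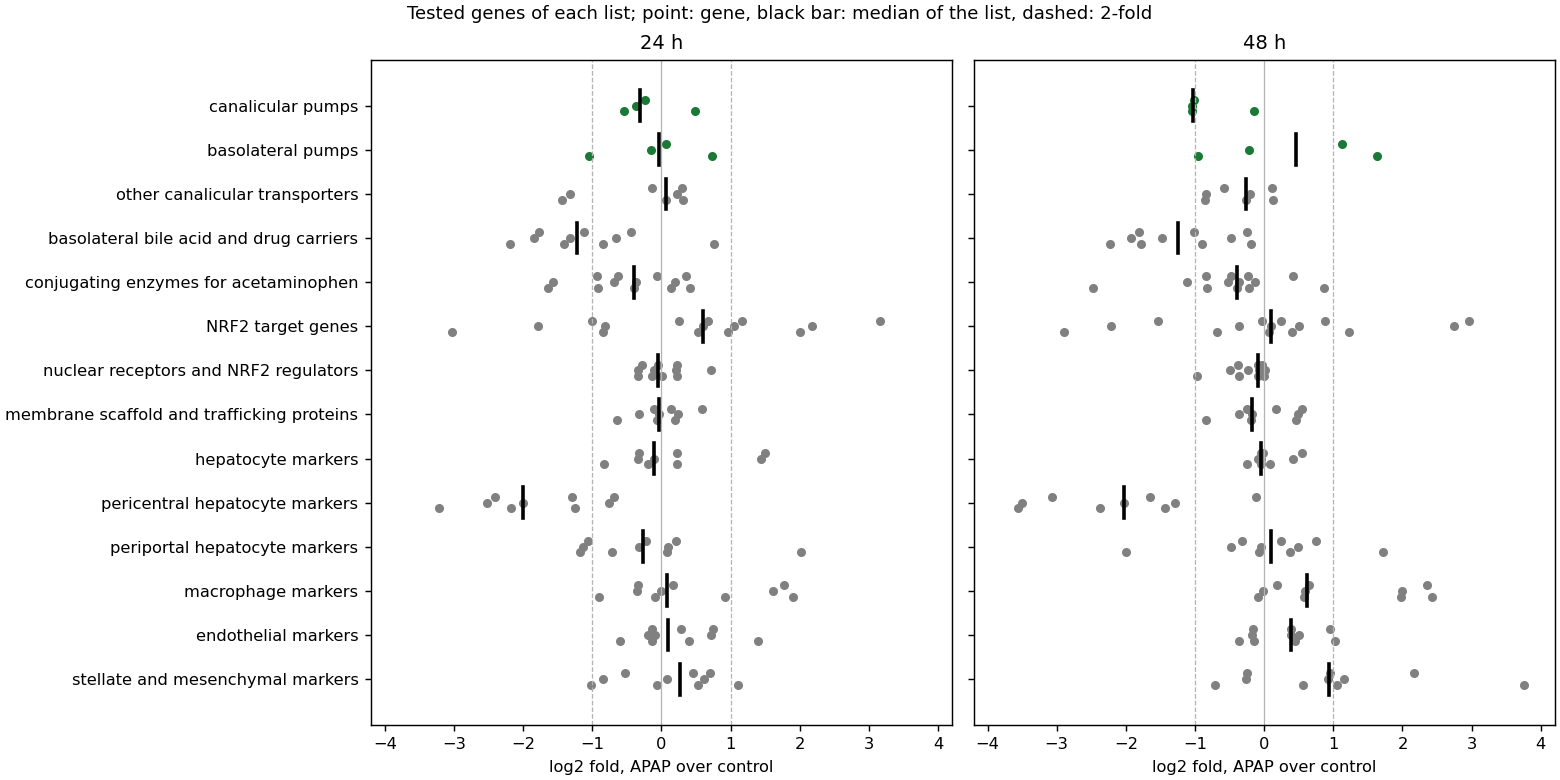
Log2 fold of APAP over control (horizontal axes) at 24 h and 48 h for the tested genes of each list, 1 point a gene and a black bar for the median, with the efflux pumps in green and dashed lines at 2-fold. The pericentral hepatocyte markers have the lowest medians (-2.00 and -2.03), the basolateral carriers lie at -1.22 and -1.24, and the canalicular pumps are at -0.30 at 24 h and -1.03 at 48 h.

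Markers of hepatocytes and their zones differed between the pools as well. Of 9 pericentral hepatocyte markers tested of 10, 7 were at least 2-fold lower at 24 h and 8 at 48 h, and the summed level of the list was 3178 and 3450 RPM in controls, against 1512 and 1262 RPM after APAP. Of 10 periportal markers, 3 were lower and 1 higher at 24 h and 1 lower and 1 higher at 48 h, with sums of 6504 and 8127 RPM in controls and 5278 and 8511 RPM after APAP. Of 9 general hepatocyte markers, 2 were at least 2-fold higher at 24 h (Fga and Fgb) and 0 were called at 48 h. Their median log2 fold, with size factors, was -0.10 at 24 h and -0.043 at 48 h. The sum, scaled to library totals, was 78741 and 80521 RPM in controls and 88406 and 98450 RPM after APAP. At 24 h Fga (2232 RPM in control, 7159 after APAP) and Fgb (2210, 6801) carried most of that rise. The pools thus held the markers that define liver tissue at a high level throughout. The pericentral list had nearly equal medians at both times, -2.00 and -2.03, but its genes did not move alike. At 24 h and 48 h Glul was 9.32-fold and 11.8-fold lower, Slc1a2 5.30-fold and 8.35-fold, and Rhbg 5.74-fold and 11.3-fold. Cyp1a2 was 4.51-fold and 3.16-fold lower. The folds of Abcb4 and Abcg2 were lower at 48 h than at 24 h, and a link to the pericentral markers was not tested.

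The summed levels of macrophage, stellate and endothelial markers, in RPM, were above both controls in both APAP pools, while fewer than 5 markers of each list were called at either time. RPM is the scaling that moved the median log2 fold of all genes up by 0.187 at 24 h and 0.266 at 48 h, whereas the folds below use size factors. Their median log2 folds at 24 h and 48 h were 0.078 and 0.62 for macrophage markers and 0.27 and 0.94 for stellate and mesenchymal markers. For endothelial markers they were 0.094 and 0.39. Of 10 macrophage markers, 3 at 24 h and 4 at 48 h were at least 2-fold higher, with sums of 245 RPM in each control pool and 336 and 554 RPM after APAP. At 24 h Lyz2 (17.3 RPM in control, 67.4 after APAP), Marco (12.3, 43.0) and Cd68 (13.2, 28.3) carried that rise. The markers did not move alike, since Clec4f was 1.87-fold lower at 24 h (1.55 to 2.27). Of 10 stellate and mesenchymal markers, 1 was higher and 1 lower at 24 h and 4 were higher at 48 h, with sums of 119 and 122 RPM in controls and 151 and 258 RPM after APAP. Of 10 endothelial markers 1 was higher at each time, with sums of 149 and 165 RPM in controls and 192 and 220 RPM after APAP.

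Less abundant types gave few reads. For neutrophils 2 of 6 measured markers were tested and both were higher at both times, with sums of 3.29 and 3.47 RPM in controls and 44.2 and 36.9 RPM after APAP, and Csf3r, Cxcr2 and Mmp8 were at 0 in at least 1 library. For cholangiocytes 3 of 8 were tested and 1 was higher at each time, with sums of 34.8 and 46.8 RPM in controls and 95.5 and 81.8 RPM after APAP. Sox9 (11.9 and 13.3 RPM in controls, 53.9 and 28.6 after APAP) and Spp1 (10.7 and 13.3, 23.2 and 34.2) carried most of that rise. Krt7, Krt19, Epcam and Muc1, under the limit, had 8, 6, 2 and 4 control reads at 24 h against 15, 8, 5 and 3 after APAP. At 48 h they had 8, 13, 10 and 13 control reads against 2, 8, 7 and 2 after APAP. For lymphocytes 1 of 8 was tested and none was called, with 6.79 and 5.97 RPM in controls and 4.74 and 6.68 RPM after APAP, and Cd8a was at 0 in all 4 libraries. Abcc1, Abcc4 and Abcc5, which had more reads after APAP, are known also from cells other than hepatocytes. The part of cell composition in the values of any pump gene was not tested.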

How the data were processed

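Hepatic RNA of 4 pools was analysed by MACE, with 1 library for each. According to the methods and the submitters' processing notes, RNA was treated with DNase, duplicates were removed by unique molecular identifiers, bases of low quality were trimmed with cutadapt, poly(A) tails were clipped, and reads were mapped on mm10. What the authors deposited is an unnormalized count for each gene, made with HTSeq. Tool versions are not given in the sources used here. The table's further columns (scaled counts and the authors' log2 ratios, p-values and false discovery rates from DESeq2) were not used, and 0 columns belonged to other samples.

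Size factors came from DESeq2 1.42.0 (edgeR 4.0.16 TMM as an alternative) in R 4.3.3. With 1 library a group, neither tool's test was run. Folds and intervals were computed in Python 3.11.15 with scipy 1.17.1, numpy 2.4.6 and pandas 2.3.3, plots with matplotlib 3.10.9, and 3′ ends were compared with blastn 2.17.0. Counts under 3 reads were set to 3 reads in a fold, and no fold was formed where both counts were at or under 3. The interval of a fold is the Clopper-Pearson interval of the APAP share of both libraries' reads, scaled by the size factors, and that of a ratio of folds is the exact conditional interval of the odds ratio of the 4 counts, scaled likewise. Intervals cover counting error only. The procedure was tested on simulated counts that held counting error only, so it says nothing of the spread between mice or pools.

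The text names all 10 pump genes and, from each other list, at most 4 tested genes. These had the largest absolute value of the mean of the log2 folds at 24 h and 48 h. Genes with folds of opposite sign at the 2 times thus rank low. Some markers under the limit on mean reads are named as well, as is Clec4f, which the rule does not name. The values of 1 gene that this rule names are not reported here. Members and lists were chosen with earlier results of these data known. Of the listed symbols, Ugt1a1, Ugt1a6a, Tf and Ly6g matched no entry. Alternatives were TMM, library totals, no floor with a pseudocount of 1, a floor of 10 reads, folds of 1.5 and 5, a call by interval, no filter, the other control pool and both control pools together.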

Additional observations from a re-analysis of the deposited data

Results flagged for a closer look

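The ratio of the fold at 48 h to the fold at 24 h was 0.629 for Abcb4 and 0.707 for Abcg2, with counting intervals that exclude 1. These canalicular genes thus differed more from the control pool of the same time at 48 h. For Abcg2 this depended on the control, since against the other control pool it was 1.75-fold lower at 24 h and 1.71-fold lower at 48 h. Beyond counting error the difference between the times was not tested.

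Abcb1a and Abcb1b had folds on opposite sides of 1 at the 2 times, with ratios of 4.62 and 0.353 whose counting intervals include 1. Both rested on 30 reads or fewer in each library, and the difference was not tested.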

How the results depend on the processing

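No paired analysis was possible because each group has 1 library and the labels carry no replicate numbers, and leaving out a replicate was impossible for the same reason. Of 119 recomputed folds of the pump genes, 111 stayed within their counting interval and 9, some of them within it, lay on the other side of 1, namely values of Abcb1a, Abcb1b, Abcc2 and Abcc3. Among them the only called fold was that of Abcb1b at 48 h, 1.75 against the other control pool. The 20 ratios of folds recomputed under TMM and library totals stayed within their intervals. List medians relative to all genes cannot move with the scaling. The cause of the differences below was not tested, except that stricter or looser thresholds call fewer or more genes by construction.

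For the pumps, higher calls at 24 h (0) became 1 at 1.5-fold (Abcc4) and 1 without the filter (Abcc1). Higher calls at 48 h (2) became 0 at 5-fold and 1 (Abcc4) with the other control, a floor of 10 reads, the call by interval and both controls together. Lower calls at 24 h (1) became 0 at 5-fold, 0 with library totals, 2 with the other control, 2 without the filter and 4 by interval (Abcb4, Abcc2, Abcc6 and Abcg2). Lower calls at 48 h (3) became 0 at 5-fold, 0 with the other control, 0 with library totals, 0 with both controls together and 5 by interval (Abcb1b, Abcb4, Abcc3, Abcc6 and Abcg2).

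Over all genes, higher calls at 24 h numbered 1714 at 1.5-fold, 79 at 5-fold, 1867 by interval, 1066 with library totals and 1164 without the filter, and at 48 h 1648, 67, 1686, 1195 and 1363. Lower calls at 24 h numbered 1751, 77, 2222, 442 and 1363 under the same settings, and at 48 h 1743, 93, 2290, 394 and 1137. Depth limits Abcc1, Abcc4, Abcc5, Abcb1a and Abcb1b most, with 4 to 46 reads a library. Comparing the control pools with TMM or library totals was added after seeing the data and gave 632 and 628 genes at least 2-fold apart, against 630.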

Other observations

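Among 43 other ABC transporter genes, which serve lipids, peptides, heme and peroxisomes as well as drugs, 27 were tested, and 1 was at least 2-fold higher and 2 at least 2-fold lower at 24 h, while 4 were higher and 2 lower at 48 h. Their median log2 fold was -0.30 at 24 h and -0.13 at 48 h. Abcd3, a peroxisomal transporter of fatty acids, had 1400 and 1486 reads in the control pools at 24 h and 48 h and 577 and 580 in the APAP pools, and was 3.24-fold and 2.93-fold lower. Abcb11, given above with the canalicular transporters, was the other gene that was lower at 24 h.

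Abcd2, also peroxisomal, had 19 and 14 control reads and 38 and 50 reads after APAP, and its fold at 48 h was 3.12 (1.70 to 6.12), while the interval at 24 h (0.843 to 2.75) included 1. Abcg1, a cholesterol exporter of macrophages and other cells, had 26 and 20 control reads and 39 and 65 after APAP, with folds of 1.12 (0.667 to 1.92) and 2.84 (1.70 to 4.95). At 48 h the values of both lay near that of Abcc4, which was 3.09-fold higher (1.64 to 6.24).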
